A study of Mus musculus with 22 samples.

Results

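The genes described here are the SNAREs of the syntaxin, VAMP and SNAP families, the synaptotagmins with their Sytl and Doc2 relatives, and the syntaxin-binding proteins. They were chosen by symbol alone, as all Syt, Sytl, Stx, Stxbp, Vamp, Doc2a/b/g and Snap23, Snap25, Snap29 and Snap47 rows of the normalised gene table, which gave 56 of its 28711 rows. RNA was sequenced in bulk from the whole first molar of the mouse lower jaw, taken on postnatal day 5 (P5), when ameloblasts secrete enamel matrix, and postnatal day 11 (P11), when enamel matures. The Het groups were Tgfbr2-G357W/+ mice, which carry a mutant type II TGF-beta receptor on 1 allele and model Loeys-Dietz syndrome, and the WT groups were Tgfbr2-+/+ littermates. Each genotype has 6 libraries at P5 and 5 at P11, and strain and sex are not given in the labels. The design text counts 5 Het and 8 WT mice for these 22 libraries. Some libraries may therefore come from 1 mouse, so the spread that the p-values rest on is that among libraries and may in part be technical.

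SNARE proteins drive the fusion of a vesicle with its target membrane. A VAMP on the vesicle zips into a bundle with a syntaxin and a SNAP protein on the target, and Munc18 proteins, encoded by Stxbp genes, hold and guide the syntaxin. Synaptotagmins and Doc2 proteins bring calcium control through paired C2 domains, and the Sytl proteins tether vesicles that carry Rab27. In a tooth, ameloblasts release enamel matrix proteins and later proteases by exocytosis, and odontoblasts release collagen and dentin matrix, while the neuronal members are best known from synapses.

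Library totals ran from 32903949 to 45343744 counts. Values below are TMM-scaled counts scaled to a common library total (CPM), with the SD between libraries, unless a scale per kilobase (kb) of exon is named. Dental markers matched the tissue at both ages: the summed level of 4 secretory ameloblast markers ran from 122287 to 168352 CPM at P5 and from 17338 to 44731 CPM at P11, and that of 5 maturation ameloblast markers from 810 to 2457 CPM at P5 and from 59160 to 83422 CPM at P11. Markers of other cell types also stood higher at P11: 5 osteoclast markers summed to 34.0 to 70.9 CPM at P5 and 241 to 395 CPM at P11, 6 Schwann cell markers to 14.96 to 21.5 and 52.3 to 75.9 CPM, and 4 mast cell markers to 2.67 to 6.30 and 8.83 to 22.98 CPM. The 4 osteoblast markers summed to 465 to 629 and 996 to 2153 CPM, and 3 erythroid markers to 42.9 to 78.5 and 137 to 338 CPM. Odontoblast markers stood lower at P11: 4 of them summed to 2950 to 3755 CPM at P5 and 1286 to 1924 CPM at P11. Among these 4, Dmp1 rose (log2 fold change 0.79 in WT and 0.95 in Het). The part of all these markers in the age differences given below was not tested. Neuronal markers were low, with 8 of them summing to between 21.3 and 44.3 CPM. Oral keratinocyte markers stood apart in P11 WT 4 (1032 CPM), P11 Het 2 (727 CPM) and P11 WT 5 (462 CPM), against 48.0 to 157 CPM in the other P11 libraries. They summed to 16.1 CPM in P5 Het 4, and no other P5 library exceeded 2.62 CPM. Muscle markers stood apart in P11 Het 2 (71.5 CPM) and P5 Het 5 (54.7 CPM). P5 Het 6 is a P5 sample by its title and library name but a P11 sample by its tissue and treatment fields; it was used as P5. Its maturation ameloblast markers summed to 1293 CPM, within the P5 range. Library names carry a number from 1 to 5, called the prefix here, whose meaning the labels do not give. Prefixes 3, 4 and 5 occur at P5 only and prefixes 1 and 2 at P11 only, so age and prefix cannot be told apart. The mutation is a change of 1 amino acid, which counts per gene cannot check.

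Most of the abundant transcripts of the family were those of general, non-neuronal secretory machinery. Ranked by the mean of the 4 group means per kb of exon, Vamp8 was highest at 59.4 CPM per kb. Vamp8 is the vesicle SNARE of regulated secretion in exocrine and other non-neuronal cells. It was followed by Stx4a (34.3 CPM per kb), the syntaxin of the basolateral and general plasma membrane, and Stx5a (24.1 CPM per kb), the syntaxin of Golgi traffic. Snap47 stood at 21.1 CPM per kb and Vamp4 of the trans-Golgi at 19.2 CPM per kb. Vamp2, which serves synapses as well as many regulated secretory cells, stood at 17.2 CPM per kb. Snap23, the SNAP protein of non-neuronal cells, stood at 17.0 CPM per kb, whereas its neuronal relative Snap25 stood at 1.82 CPM per kb. Neighbours in this order often overlap: Vamp2 ranged from 13.6 to 22.2 CPM per kb over the 22 libraries and Snap23 from 14.2 to 21.6. Vamp8, at 46.8 to 76.5 CPM per kb, did not overlap Stx4a, at 30.5 to 39.2.

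The synaptotagmins were mostly rare. Among the 8 that bind calcium, the median was 0.54 CPM per kb and Syt9, a calcium sensor of fast release and of dense-core vesicles, stood far above the rest at 9.70, with Syt5 next at 1.14. Syt1, the main calcium sensor at synapses, was the lowest of all 56 genes at 0.056 CPM per kb, with 402 counts over all libraries. Syt7, a slow sensor found in many secretory cells, stood at 0.12 CPM per kb. The 9 synaptotagmins without clear calcium binding reached at most 1.71 CPM per kb, in Syt11. Among the Rab27-binding relatives, Sytl1 stood at 14.8 and Sytl4 at 7.10 CPM per kb, while Sytl3 stood at 0.071. Stxbp2, or Munc18-2, the partner of Stx3 and Stx11, stood at 12.8 CPM per kb, the highest of the syntaxin-binding group. Vamp9 gathered 114 counts in all and did not pass the filter on low counts, so 55 of the 56 genes were tested.

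**Figure D1:**
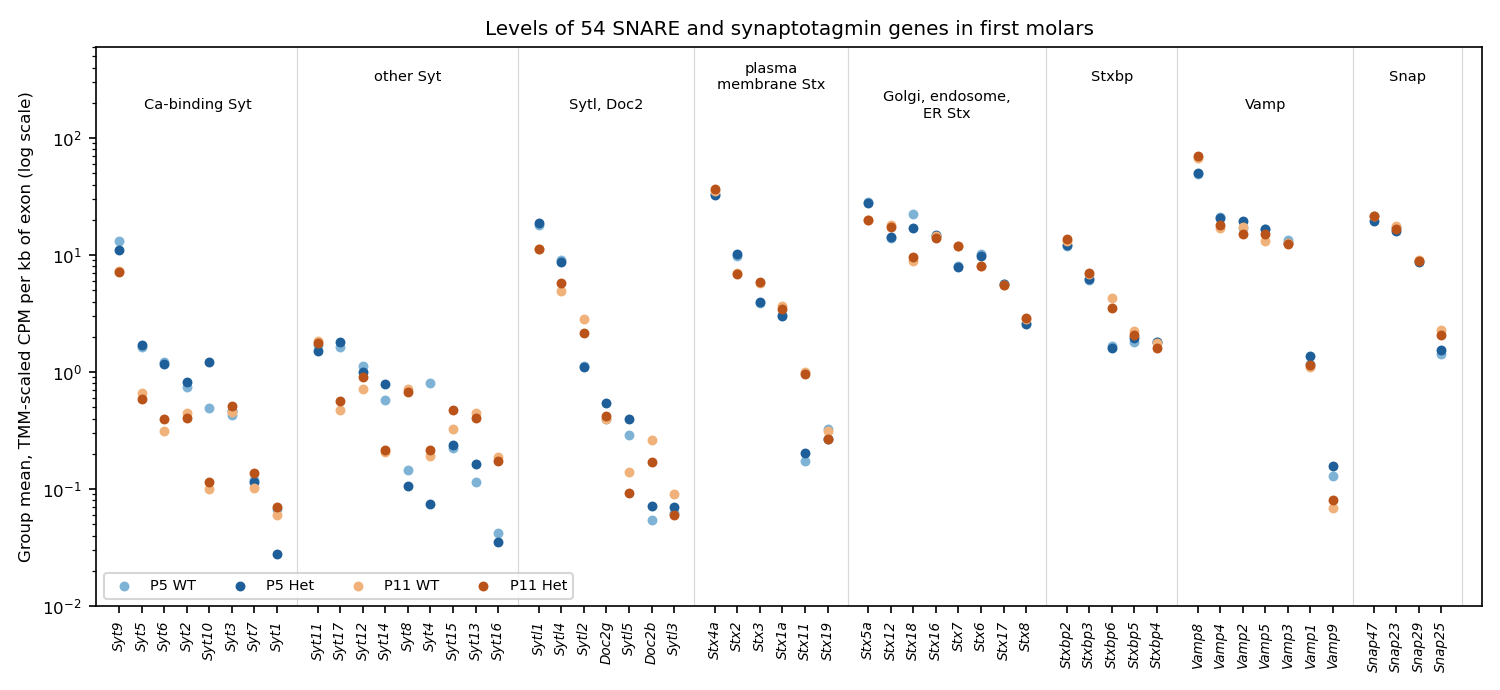
Mean TMM-scaled CPM per kb of exon (log scale) of 54 of the genes, in 8 role groups and ordered by level within each, with a point for each of the 4 groups of libraries. Vamp8, at 59.4 CPM per kb over the groups, lies above all others, and most synaptotagmins lie below 1 CPM per kb.

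Some of these genes lie next to each other or overlap other genes, and the libraries do not keep strand. Vamp5 and Vamp8 lie 4754 bp apart on chromosome 6. Doc2g shares 63.5% of its exon bases with Gm49405 on the same strand, so its counts are uncertain. Stx18 shares 12.5% of its exon bases with Nsg1 and 19.8% with Gm42858, both on the opposite strand, and reads from those stretches cannot be told apart.

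At P5, 1 of the 55 genes differed between genotypes. Stx18 was lower in Het molars. Stx18 is the syntaxin of the endoplasmic reticulum that receives vesicles returning from the Golgi, and so serves the early secretory pathway rather than exocytosis itself. A gene was called at an adjusted p under 0.05 in edgeR's quasi-likelihood test, with Benjamini-Hochberg adjustment over all 21510 genes tested, and 0.26% of those genes were called at P5 (0.0651% higher and 0.195% lower in Het). The members' share was 1.82%, which is that 1 gene. Without the test's adjustment, 10 of the 55 had a p under 0.05, a larger share than the 6.22% of all genes. Of these only Stx18 was called, and the excess itself was not tested. The members' median log2 fold change was 0.00, as over all genes.

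Stx18 (chr5:38038742-38137765, plus strand, GRCm38) stood between 93.5 and 114 CPM in the P5 WT libraries, with a median of 104. In P5 Het it stood between 68.5 and 93.0 CPM, with a median of 78.1. Every P5 Het library was thus below every P5 WT library, by a narrow margin between P5 Het 1 and P5 WT 4. The means were 104 ± 8.07 and 78.9 ± 8.59 CPM (SD, n = 6 libraries per group). The log2 fold change was -0.40 ± 0.08 (SE), with an adjusted p of 0.0184 by edgeR. Such a separation with Het below WT was found for 0.507% of all genes tested, and with Het above WT for 0.344%. The opposite-strand neighbour Nsg1 stood at 26.6 and 24.4 CPM (log2 fold change -0.12, adjusted p = 0.876) and Gm42858 at 7.003 and 5.62 CPM (-0.32, adjusted p = 0.873).

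The Stx18 call was lost when P5 WT 1, P5 WT 3, P5 Het 4, P5 Het 5 or P5 Het 6 was left out, with adjusted p-values of 0.0588, 0.0514, 0.0530, 0.0693 and 0.0651 and log2 fold changes from -0.36 to -0.40. It was also lost without the 5 libraries that have raised muscle or oral keratinocyte markers (-0.35, adjusted p = 0.224). Within prefix 3, Stx18 stood at 97.5 to 114 CPM in 2 WT and 83.3 to 93.0 CPM in 2 Het libraries. Within prefix 4 it stood at 93.5 to 112 CPM in 4 WT and 77.0 to 79.1 CPM in 2 Het libraries, so neither prefix showed overlap. Prefix 5 holds only P5 Het 5 and 6, which had the lowest values, 68.5 and 72.6 CPM. The sum of the maturation ameloblast markers, 1278 to 2457 CPM in P5 WT and 810 to 1592 in P5 Het, overlapped between genotypes. Most of that sum was Odam, at 2087 of 2197 CPM in P5 WT 1. By edgeR all 5 markers had negative log2 fold changes in Het. Klk4 passed the test (-0.78, adjusted p = 0.0284). Odaph (-1.08, adjusted p = 0.0691), Slc24a4 (-1.52, adjusted p = 0.0971), Amtn (-1.22, adjusted p = 0.225) and Odam (-0.50, adjusted p = 0.403) did not. The part of these markers in the Stx18 difference was not tested. In whole teeth fewer cells of a type and less RNA per cell cannot be told apart.

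The partners of Stx18 in its endoplasmic reticulum complex did not pass the test at P5. They were picked for this check after the Stx18 value was known. Sec22b had a log2 fold change of -0.11 (adjusted p = 0.829), Bnip1 of -0.07 (adjusted p = 0.958) and Use1 of 0.01 (adjusted p = 0.987).

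Syt10, a calcium sensor known for the release of IGF-1 from olfactory neurons, was the other gene whose P5 groups did not overlap, in the opposite direction. It stood between 0.529 and 1.27 CPM in P5 WT, with a median of 0.909, and between 1.64 and 3.07 CPM in P5 Het, with a median of 2.06. These are 19 to 45 counts per WT library and 60 to 117 per Het library. The log2 fold change was 1.30 ± 0.43 and the adjusted p 0.460 in the model of all 22 libraries. With only the 2 P5 groups in the fit the adjusted p was 0.0318, so the call depends on which libraries enter the model.

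Syt4, a synaptotagmin of dense-core vesicles and the Golgi, came second by p at P5 through 1 library. P5 WT 6 held 15.5 CPM, while the other 5 WT libraries held 0.188 to 1.21 CPM and the Het libraries 0.154 to 0.498. The log2 fold change was -3.40 ± 0.82 (adjusted p = 0.0971), and without P5 WT 6 it was -1.13 (adjusted p = 0.744). The adjusted p fell to 0.0456 without P5 WT 2, to 0.0473 without P5 WT 4 and to 0.0478 with no filter on low counts. Nefl, a neurofilament gene, also stood apart in P5 WT 6, at 1.73 CPM, where no other P5 library exceeded 0.335 CPM. The summed neuronal markers of that library, 41.6 CPM, lay within the P5 WT range of 33.6 to 44.3 CPM.

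The other members with small p at P5 were not called. Syt14, which lacks calcium binding, stood at 6.88 ± 1.58 CPM in WT and 9.39 ± 1.48 in Het (log2 fold change 0.45, adjusted p = 0.513). The ranges overlapped, with P5 WT 3 at 9.22 CPM inside the Het range of 8.06 to 12.2. Syt1 stood at 0.564 ± 0.212 CPM in WT and 0.231 ± 0.172 in Het (-1.28, adjusted p = 0.517), with 11 to 32 and 3 to 17 counts per library. Syt9, the most abundant calcium-binding synaptotagmin, stood at 52.8 ± 4.86 and 43.8 ± 3.91 CPM (-0.27, adjusted p = 0.559). Its ranges overlapped only at their ends, since the lowest WT value was 48.7 and the highest Het value 49.0 CPM. Neuronal markers summed to 28.9 to 34.9 CPM in P5 Het and 33.6 to 44.3 CPM in P5 WT, and their part in the Syt1 values was not tested.

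**Figure D2:**
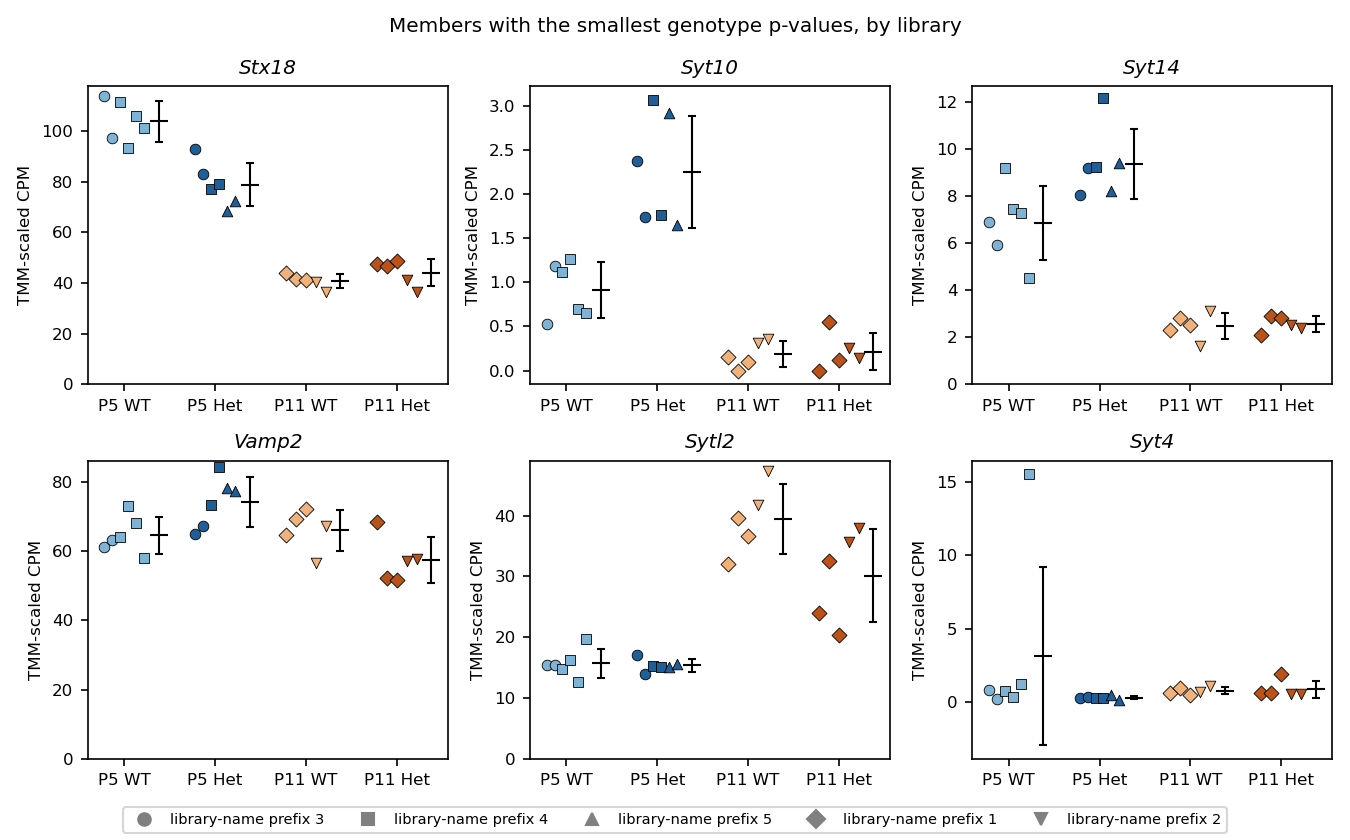
TMM-scaled CPM in each of the 22 libraries (vertical axis) by group (horizontal axis) for 6 genes with the smallest genotype or interaction p-values; marker shapes give the library-name prefix, and bars the mean ± SD. Stx18 and Syt10 are the genes whose P5 groups do not overlap, and the Syt4 mean of P5 WT is set by P5 WT 6 at 15.5 CPM.

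At P11, none of the 55 genes was called between genotypes by edgeR, and 5 had an unadjusted p under 0.05, against 9.85% of all genes, so that count is near the background. DESeq2 and limma-voom also called 0. Across all genes tested, 0.0279% were called (0.0232% higher and 0.00465% lower in Het). No member had P11 groups without overlap, against 0.614% of all genes with every Het library above WT and 0.748% with every Het library below. The members' median log2 fold change was -0.01, as over all genes. The secretory ameloblast markers were uneven between the P11 groups: they summed to 17338 to 26074 CPM in WT and 18275 to 44731 CPM in Het, with P11 Het 1, 2 and 3 above every WT library. Of these markers, Enam had a log2 fold change of 2.81 (unadjusted p = 0.00066, adjusted p = 0.160). Their part in the P11 values of the members was not tested.

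The 5 members with the smallest p at P11 were Sytl2, Sytl4, Vamp2, Syt12 and Syt15, and none of them was called. Sytl2, a Rab27 effector that docks vesicles at the plasma membrane, stood at 32.0, 39.5, 36.7, 41.7 and 47.3 CPM in P11 WT 1 to 5 and at 24.0, 32.5, 20.4, 35.7 and 37.97 CPM in P11 Het 1 to 5. The 2 lowest values were Het and the 3 highest were WT, and the ranges overlapped (log2 fold change -0.39 ± 0.14, adjusted p = 0.367). Sytl4, or granuphilin, stood at 22.7, 27.9, 29.9, 21.9 and 24.2 CPM in the WT libraries. Its Het libraries held 32.8, 31.1, 25.3, 29.2 and 29.6 CPM, of which 3 lay inside the WT range (0.23 ± 0.09, adjusted p = 0.437).

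Vamp2, the vesicle SNARE of synapses and of many regulated secretory cells, stood at 64.8, 69.4, 72.1, 56.6 and 67.4 CPM in P11 WT and at 68.4, 52.1, 51.7, 57.3 and 57.6 CPM in P11 Het. All but 1 Het library lay below 58 CPM and all but 1 WT library above 64 CPM (log2 fold change -0.20 ± 0.09, adjusted p = 0.448). Syt12, a synaptotagmin that does not bind calcium, stood at 4.00 ± 0.517 CPM in WT and 5.03 ± 0.953 in Het (0.33, adjusted p = 0.453). Syt15 stood at 1.67 ± 0.332 and 2.45 ± 0.656 CPM (0.55, adjusted p = 0.493).

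The genotype by age interaction asks whether the Het effect differs between ages. None of the 55 genes was called by edgeR, against 0.0139% of all genes, and 7 had an unadjusted p under 0.05, a rule that 10.3% of all genes met. Stx18 had the smallest p. Its Het effect was -0.40 at P5 and 0.12 at P11, where WT stood at 43.8, 41.7, 41.3, 40.3 and 36.4 CPM and Het at 47.6, 46.7, 48.7, 41.3 and 36.3 CPM. The P11 libraries of prefix 1 held 41.3 to 43.8 CPM in WT and 46.7 to 48.7 CPM in Het. Those of prefix 2 overlapped, at 36.4 to 40.3 and 36.3 to 41.3 CPM. The prefix 1 Het libraries are also those with raised secretory ameloblast markers, whose part in the Stx18 values was not tested. The interaction was 0.52 ± 0.12 on the log2 scale, with an adjusted p of 0.170. DESeq2 gave 0.51 and called it, with an adjusted p of 0.0155, and limma-voom called 0 members. The difference of the Stx18 effect between ages thus held in DESeq2 and not in edgeR.

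Vamp2 came next, 64.6 ± 5.30 and 74.3 ± 7.27 CPM in P5 WT and Het and 66.1 ± 5.92 and 57.4 ± 6.74 CPM at P11. Its Het effect was 0.20 at P5 and -0.20 at P11, an interaction of -0.40 ± 0.12 (adjusted p = 0.347). The interactions of Syt4 (3.58, adjusted p = 0.377), Syt12 (0.48, adjusted p = 0.434) and Syt1 (1.51, adjusted p = 0.436) were not called either. That of Syt4 fell to 1.30 without P5 WT 6.

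Between P5 and P11 much of the family changed. In WT, 14 of the 55 tested genes rose and 18 fell, which is 58.2%, and in Het 16 rose and 17 fell, which is 60.0%. Across all genes tested, 49.4% were called in WT (24.8% higher, 24.7% lower) and 47.8% in Het (24.4% higher, 23.4% lower), so a share of similar size changed with age across the whole transcriptome. The members' median log2 fold change was 0.01 in WT and 0.04 in Het, against -0.01 in both over all genes. The same direction was called in both genotypes for 27 genes, of which 12 rose and 15 fell, and 17 were called in neither. Of all genes tested, 37.9% were called in the same direction in both (19.7% higher, 18.2% lower) and 40.6% in neither.

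Counted by the groups of libraries, 7 genes had every P11 library above every P5 library over both genotypes: Stx3, Stx7, Stx11, Stx12, Stxbp6, Sytl2 and Vamp8. Another 9 had every P11 library below every P5 library: Stx2, Stx5a, Stx18, Syt5, Syt6, Syt9, Syt14, Syt17 and Sytl4. The shares of all genes with such a separation were 10.9% above and 9.48% below.

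**Figure D3:**
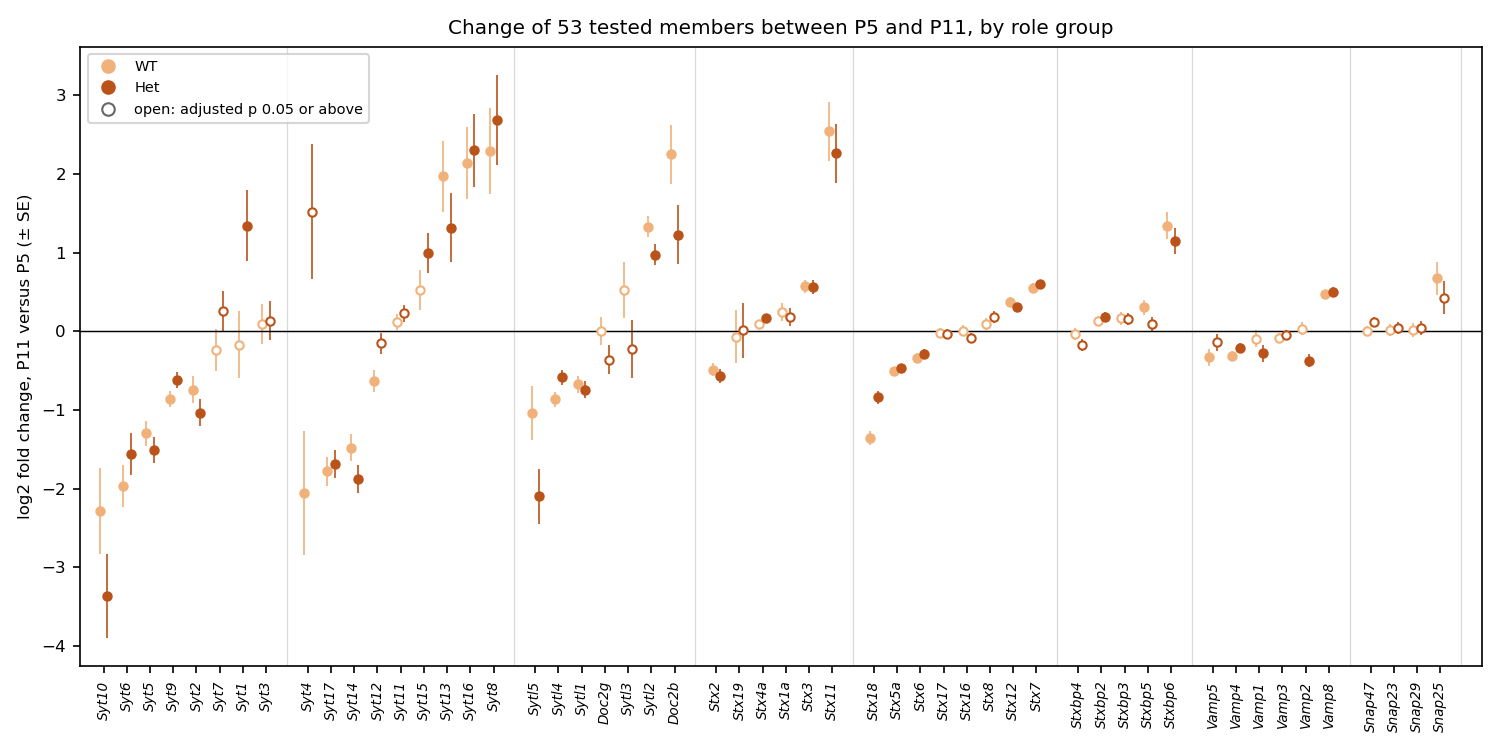
Log2 fold change from P5 to P11 with its SE (vertical axis) for 53 of the tested genes in 8 role groups (horizontal axis), in WT and in Het; open points have an adjusted p of 0.05 or above. Of the 8 calcium-binding synaptotagmins at the left, 5 fell in each genotype, and Stx11 of the plasma membrane syntaxins rose by 2.54 and 2.26. Of all genes tested, 24.7% fell in WT and 23.4% in Het.

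The counts of the role groups below stand against the shares of all genes tested. In WT 24.8% of all genes rose and 24.7% fell, and in Het 24.4% rose and 23.4% fell. No role group was tested as a set. Of the 8 calcium-binding synaptotagmins, 0 rose and 5 fell in WT, namely Syt2, Syt5, Syt6, Syt9 and Syt10, with a group median log2 fold change of -0.80. The same 5 fell in Het, where the median was -0.83. There Syt1 rose (1.34, adjusted p = 0.0179), a call that was lost without P11 Het 1 (adjusted p = 0.0552) or P11 Het 2 (adjusted p = 0.0622) and without the 5 libraries with raised keratinocyte or muscle markers (1.14, adjusted p = 0.0766). With only the P11 libraries of prefix 2 the Het change of Syt1 was 0.41 (adjusted p = 0.648). Syt10 fell the furthest. From 0.529 to 1.27 CPM in P5 WT it went to 0.155, 0, 0.0984, 0.312 and 0.355 CPM in P11 WT 1 to 5 (log2 fold change -2.28 ± 0.55, adjusted p = 0.00131). From 1.64 to 3.07 CPM in P5 Het it went to 0, 0.545, 0.120, 0.260 and 0.139 CPM in P11 Het 1 to 5 (-3.36 ± 0.53, adjusted p = 1.26e-05). The highest P11 Het library, at 0.545 CPM, reached the lowest P5 WT library but no P5 Het library, and 1 P11 library of each genotype had 0 counts.

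Syt6, known from acrosomal exocytosis in sperm, stood at 5.03 to 9.05 CPM in P5 WT (median 7.25) and 4.47 to 9.56 CPM in P5 Het (median 5.95). The P11 WT libraries held 1.49, 2.19, 2.95, 1.27 and 1.19 CPM and the P11 Het libraries 2.09, 1.27, 2.38, 3.43 and 2.41 CPM. No P11 library reached the P5 range (log2 fold change -1.97 ± 0.27 in WT, adjusted p = 1.57e-06, and -1.56 ± 0.26 in Het, adjusted p = 3.01e-05). Syt5 went from 3.88 ± 0.533 to 1.58 ± 0.151 CPM in WT and from 4.03 ± 0.498 to 1.41 ± 0.408 CPM in Het. Syt9 went from 52.8 ± 4.86 to 29.2 ± 3.84 CPM in WT and from 43.8 ± 3.91 to 28.6 ± 4.80 CPM in Het, and Syt2 from 5.67 ± 0.778 to 3.39 ± 0.682 and from 6.31 ± 1.03 to 3.08 ± 0.833 CPM. The textbook sensor Syt7 did not pass the test in either genotype (-0.24, adjusted p = 0.478 in WT, and 0.26, adjusted p = 0.443 in Het), nor did Syt3 (0.10 and 0.14).

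The 9 other synaptotagmins split by gene. In WT 3 rose and 4 fell, and in Het 4 rose and 2 fell. The WT falls include Syt4 (log2 fold change -2.06, adjusted p = 0.0345 by edgeR), whose P5 WT mean is set by P5 WT 6 at 15.5 CPM. The other P5 WT libraries held 0.188 to 1.21 CPM and the P11 WT libraries 0.492 to 1.07 CPM. In Het, Syt4 stood at 0.154 to 0.498 CPM at P5 and 0.533 to 1.90 CPM at P11 (1.52, adjusted p = 0.152). Without P5 WT 6, 16 members rather than 18 fell in WT. Syt14 and Syt17 fell in both. Syt14 stood at 4.51 to 9.22 CPM in P5 WT (median 7.09) and 8.06 to 12.2 CPM in P5 Het (median 9.24), and at P11 at 2.32, 2.80, 2.53, 1.61 and 3.10 CPM in WT and 2.09, 2.92, 2.81, 2.53 and 2.41 CPM in Het. The ages did not overlap, with log2 fold changes of -1.48 ± 0.17 in WT (adjusted p = 1.43e-07) and -1.88 ± 0.17 in Het (adjusted p = 3.33e-09). Syt17, a synaptotagmin relative without a membrane anchor that sits at the Golgi, stood at 7.29 to 9.30 CPM in P5 WT (median 8.68) and 6.92 to 11.9 CPM in P5 Het (median 9.15). The P11 values were 2.84, 3.05, 2.34, 2.26 and 1.90 CPM in WT and 2.88, 4.63, 2.81, 2.22 and 2.06 CPM in Het, again without overlap (-1.78 ± 0.18, adjusted p = 2.13e-08, and -1.69 ± 0.18, adjusted p = 4.48e-08).

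Syt8, Syt13 and Syt16 rose in both genotypes from very low levels. Syt8, a divergent synaptotagmin of non-neuronal cells, stood at 0.0539 to 0.619 CPM in P5 WT (median 0.245) and 0.0257 to 0.406 CPM in P5 Het (median 0.192). At P11 it stood at 0.438, 0.993, 0.935, 2.64 and 1.83 CPM in WT and 0.744, 1.33, 0.529, 1.68 and 2.09 CPM in Het (log2 fold change 2.29 ± 0.55, adjusted p = 0.00125, and 2.68 ± 0.57, adjusted p = 0.000437). The highest value was in P11 WT 4, the library with the highest oral keratinocyte markers. In Het the library with the highest such markers was P11 Het 2. It held 1.33 CPM of Syt8, and P11 Het 4 and 5, both of prefix 2, held 1.68 and 2.09 CPM. Without the 5 libraries with raised keratinocyte or muscle markers the WT change was 1.501 (adjusted p = 0.0540). The part of those markers in the Syt8 values was not tested. P11 WT 1, at 0.438 CPM, fell inside the P5 WT range, while the Het ages did not overlap.

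Syt16, an atypical synaptotagmin without a membrane anchor, stood at 0.250 to 0.584 CPM in P5 WT (median 0.371) and 0.0836 to 0.719 CPM in P5 Het (median 0.329). At P11 it stood at 0.593, 1.27, 1.23, 2.16 and 3.35 CPM in WT and 1.37, 0.785, 0.769, 2.20 and 2.87 CPM in Het. The ages did not overlap within a genotype (2.14 ± 0.45, adjusted p = 0.000382, and 2.30 ± 0.46, adjusted p = 0.000232). Syt13, a synaptotagmin of endocrine cells, stood at 0.0254 to 1.03 CPM in P5 WT (median 0.356) and 0.230 to 1.51 CPM in P5 Het (median 0.459). At P11 it stood at 2.22, 1.48, 1.65, 1.56 and 1.55 CPM in WT and 1.49, 1.85, 1.90, 1.25 and 1.18 CPM in Het. The WT ages did not overlap (1.97 ± 0.46, adjusted p = 0.000895), and in Het P5 Het 2 alone reached the P11 range (1.32 ± 0.44, adjusted p = 0.0166). Without the 5 marker-rich libraries the Het change of Syt13 was 1.05 (adjusted p = 0.128), and with only the P11 libraries of prefix 2 it was 1.00 (adjusted p = 0.254).

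The Sytl and Doc2 group held changes in both directions, with 2 genes rising and 3 falling of 7 in each genotype. Sytl2 rose from 15.7 ± 2.33 to 39.4 ± 5.69 CPM in WT and from 15.3 ± 1.06 to 30.1 ± 7.59 CPM in Het. Sytl4 fell from 46.1 ± 5.12 to 25.3 ± 3.44 CPM and from 44.4 ± 3.64 to 29.6 ± 2.80 CPM, and Sytl1 from 45.3 ± 5.00 to 28.4 ± 5.48 CPM and from 47.1 ± 5.58 to 28.2 ± 3.12 CPM. These 3 bind Rab27, so the abundant Rab27 effectors of the group changed in opposite directions. The log2 fold changes were 1.33 and 0.97 for Sytl2, -0.86 and -0.58 for Sytl4, and -0.67 and -0.74 for Sytl1, in WT and Het.

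Doc2b, a calcium sensor of high affinity that acts in spontaneous release and insulin secretion, stood at 0.0808 to 0.533 CPM in P5 WT (median 0.205) and 0.223 to 0.463 CPM in P5 Het (median 0.308). At P11 it stood at 1.49, 0.534, 0.861, 1.85 and 0.990 CPM in WT and 0.581, 0.480, 1.13, 0.639 and 0.858 CPM in Het. The ages did not overlap within a genotype, although in WT the nearest values were 0.533 and 0.534 CPM (log2 fold change 2.25 ± 0.38, adjusted p = 2.56e-05, and 1.23 ± 0.37, adjusted p = 0.00870). Sytl5, a further Rab27 effector, stood at 0.432 to 0.928 CPM in P5 WT (median 0.659) and 0.432 to 1.58 CPM in P5 Het (median 0.964). In P11 WT it stood at 0.206, 0.305, 0.271, 0.360 and 0.457 CPM, so that P11 WT 5 entered the P5 range. The P11 Het libraries held 0.325, 0.175, 0.216, 0.118 and 0.232 CPM, below all P5 Het libraries (-1.04 ± 0.34, adjusted p = 0.0136, and -2.10 ± 0.35, adjusted p = 2.62e-05). The WT change of Sytl5 was -0.68 with only the P11 libraries of prefix 2 (adjusted p = 0.292).

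Of the 7 plasma membrane syntaxins, 2 rose and 1 fell in WT, and 3 rose and 1 fell in Het. Stx11, the syntaxin of granule release in cytotoxic lymphocytes, rose the most. It stood at 0.256 to 1.42 CPM in P5 WT (median 0.622) and 0.473 to 1.27 CPM in P5 Het (median 0.802), and at P11 at 2.60, 2.34, 3.37, 7.46 and 5.33 CPM in WT and 2.14, 5.72, 4.59, 2.65 and 5.26 CPM in Het. No P11 library reached down to the P5 range (log2 fold change 2.54 ± 0.38, adjusted p = 4.81e-06, and 2.26 ± 0.37, adjusted p = 2.08e-05). The highest value of each genotype at P11 was in P11 WT 4 and P11 Het 2, which had the highest oral keratinocyte markers of their genotype, and the part of those markers was not tested. The 6 myeloid markers summed to 77.9 to 96.4 CPM at P5 and 89.4 to 134 CPM at P11, while osteoclast and mast cell markers stood higher at P11, as given above; the part of each in the Stx11 values was not tested.

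Stx3, the apical syntaxin of epithelia, rose from 22.2 ± 1.19 to 32.9 ± 3.57 CPM in WT and from 22.7 ± 2.29 to 33.5 ± 4.11 CPM in Het (log2 fold change 0.57 and 0.56, adjusted p = 4.83e-06 and 6.28e-06). Stx2 fell from 45.0 ± 6.43 to 32.2 ± 1.73 CPM and from 47.01 ± 4.31 to 31.7 ± 2.38 CPM (-0.48 and -0.57). Stx4a, the more abundant plasma membrane syntaxin, had a log2 fold change of 0.09 in WT (adjusted p = 0.155) and rose by 0.17 in Het (adjusted p = 0.0111, but 0.0586 with no filter on low counts and 0.159 with only the P11 libraries of prefix 2). Stx1a, the neuronal syntaxin, did not pass the test (0.25, adjusted p = 0.0733, and 0.18, adjusted p = 0.211).

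The syntaxins of the Golgi, endosomes and endoplasmic reticulum showed 2 genes rising and 3 falling of 8 in each genotype, and these were the same genes. Stx7 of late endosomes rose from 36.2 ± 3.05 to 53.3 ± 0.955 CPM in WT and from 35.3 ± 2.06 to 53.4 ± 2.14 CPM in Het. Stx12, also called Stx13, of recycling endosomes rose from 44.2 ± 3.25 to 57.4 ± 1.40 CPM and from 45.2 ± 2.60 to 55.9 ± 2.86 CPM. Stx5a of the Golgi fell from 165 ± 7.46 to 117 ± 4.44 CPM and from 161 ± 7.93 to 116 ± 4.48 CPM, and Stx6 of the trans-Golgi and endosomes from 108 ± 7.97 to 85.4 ± 3.48 CPM and from 105 ± 4.85 to 86.0 ± 6.64 CPM. Stx18 fell the furthest, with log2 fold changes of -1.35 ± 0.08 in WT (adjusted p = 2.88e-12) and -0.84 ± 0.08 in Het (adjusted p = 1.16e-08). Endosomal Stx8, trans-Golgi Stx16 and Stx17 did not pass the test in either genotype. The secretory ameloblast markers fell and the maturation ameloblast markers rose over the same libraries; the part of those markers was not tested.

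Among the VAMPs, Vamp8 rose and Vamp4 fell in both genotypes. Vamp8 went from 114 ± 1.92 to 158 ± 13.4 CPM in WT and from 115 ± 5.66 to 163 ± 9.77 CPM in Het (log2 fold change 0.47 and 0.50, adjusted p = 2.67e-07 and 1.08e-07). Vamp4 went from 96.6 ± 4.38 to 78.0 ± 3.89 CPM and from 94.9 ± 3.06 to 81.9 ± 9.96 CPM (-0.31 and -0.21, the latter with an adjusted p of 0.0502 when only the P11 libraries of prefix 1 were used). Vamp3, or cellubrevin, did not pass the test (-0.09 and -0.05). Vamp2 fell in Het (-0.37, adjusted p = 0.000668) and had a log2 fold change of 0.03 in WT (adjusted p = 0.775), and the test of that difference is the interaction given above, which was not called. Vamp1 fell in Het alone by this threshold (-0.28, adjusted p = 0.0360) and Vamp5 in WT alone (-0.33, adjusted p = 0.0138), and neither difference was called (adjusted p = 0.702 and 0.695).

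Of the 4 SNAP proteins, 1 rose in WT and 0 in Het. Snap23, Snap29 and Snap47 had log2 fold changes between 0.01 and 0.12 in both genotypes and did not pass the test. At P5, Snap23 stood at 75.3 ± 2.62 (WT) and 69.6 ± 5.31 CPM (Het), and at P11 at 76.2 ± 11.3 and 71.6 ± 6.10 CPM. Snap25 rose in WT, from 9.68 ± 2.69 to 15.4 ± 4.85 CPM (0.67, adjusted p = 0.0113), and in Het went from 10.4 ± 1.45 to 13.99 ± 4.28 CPM (0.43, adjusted p = 0.103). With only the P11 WT libraries of prefix 2 the Snap25 change was 0.11 (adjusted p = 0.725).

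The syntaxin-binding proteins did not fall in any case that passed the test. In each genotype 3 of 6 rose, Stxbp5 and Stxbp6 among them in WT, and Stxbp2 and Stxbp6 in Het. Stxbp6, or amisyn, which binds syntaxins through a VAMP-like domain, rose from 8.90 ± 1.32 to 22.6 ± 6.73 CPM in WT (log2 fold change 1.34, adjusted p = 3.80e-07) and from 8.52 ± 0.980 to 18.8 ± 4.22 CPM in Het (1.14, adjusted p = 4.48e-06). Stxbp2 rose in Het by 0.18 (adjusted p = 0.0170) and had a change of 0.13 in WT (adjusted p = 0.0778). The Het call of Stxbp2 was lost without P11 Het 2 (adjusted p = 0.0515) or P11 Het 3 (adjusted p = 0.0649), without the 5 marker-rich libraries (adjusted p = 0.0984), with no filter on low counts (adjusted p = 0.0538) and with only the P11 libraries of prefix 2 (0.11, adjusted p = 0.315).

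**Figure D4:**
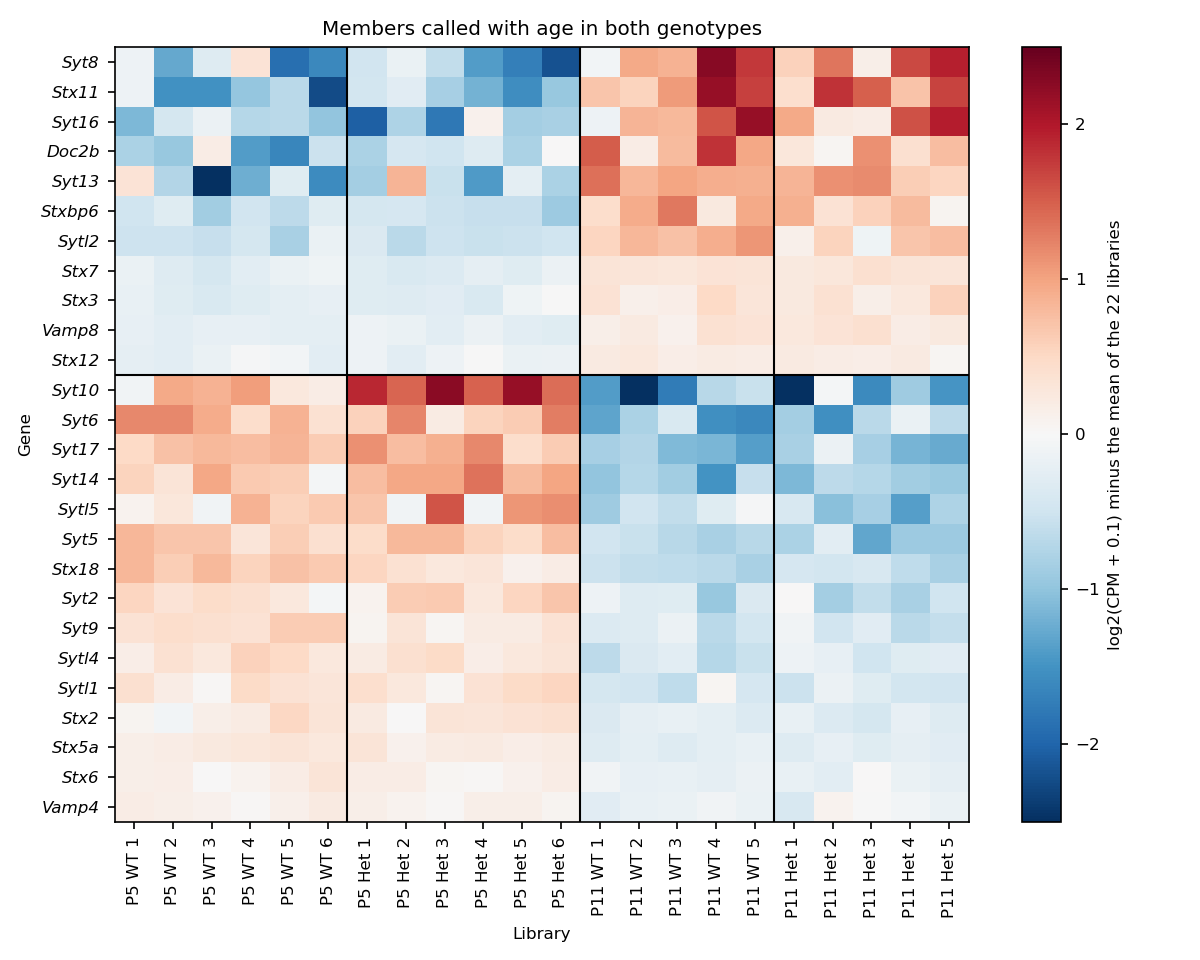
Log2(CPM + 0.1) of each library (columns, by group) minus the mean of the 22 libraries, for 26 genes (rows) called in the same direction in both genotypes; red is above and blue below the gene's mean, and the colour scale is capped at its ends. The 11 shown genes that rose form the upper block and the 15 that fell the lower block, and the P5 Het libraries are the reddest in the Syt10 row.

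Promoter windows of RefSeq (GRCm38.p6), which reach from 250 bases before to 50 after an annotated start, were given for 43 of the 56 genes, as 54 windows. Of the genes that moved with age, 4 are shown by the 150 bases before their start, as a pair that fell (Syt10, Syt14) and a pair that rose (Stx3, Stx7, the first of its starts), picked as examples after their values were known, and none of these bases lies in an annotated exon. They read 5′ to 3′ on the gene's strand, with the motif matches in capitals: GC boxes, CCAAT boxes, the E-box CACGTG and a TATA box, each on either strand. The windows are chr15:89841861-89842010 (minus strand) for Syt10, chr1:193035776-193035925 (minus) for Syt14, chr19:11819404-11819553 (minus) for Stx3 and chr10:24149139-24149288 (plus) for Stx7.
Syt10: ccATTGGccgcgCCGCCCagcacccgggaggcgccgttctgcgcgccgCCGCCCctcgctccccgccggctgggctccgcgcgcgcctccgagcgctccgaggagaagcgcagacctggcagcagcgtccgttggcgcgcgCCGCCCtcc
Syt14: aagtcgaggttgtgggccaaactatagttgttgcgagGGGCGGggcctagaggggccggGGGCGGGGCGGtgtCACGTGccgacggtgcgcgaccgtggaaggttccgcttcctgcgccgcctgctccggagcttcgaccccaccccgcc
Stx3: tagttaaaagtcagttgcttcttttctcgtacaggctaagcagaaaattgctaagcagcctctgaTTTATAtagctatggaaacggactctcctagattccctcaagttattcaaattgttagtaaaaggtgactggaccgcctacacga
Stx7: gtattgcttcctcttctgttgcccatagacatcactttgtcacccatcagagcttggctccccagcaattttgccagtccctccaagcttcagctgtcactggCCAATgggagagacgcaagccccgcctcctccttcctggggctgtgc

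Over these 150 bases the share of G and C was 80.7% for Syt10, 70.7% for Syt14, 40.0% for Stx3 and 56.7% for Stx7. It did not divide the genes by direction: among those called in both genotypes it ran from 36.7% (Sytl5) to 84.7% (Syt9) where the gene fell and from 40.0% (Stx3) to 80.7% (Syt16) where it rose. Over the full windows the GC box (GGGCGG or CCGCCC) was found in 61.1% of the 54 member windows and 35.7% of all 32851 RefSeq windows. It was in the windows of 10 of the 13 genes with a window that fell in both genotypes and 4 of the 8 that rose. The CCAAT box (CCAAT or ATTGG) was in 29.6% of member windows and 37.4% of all, and the TATA box (TATAAA or TTTATA) in 3.70% and 13.6%. The E-box (CACGTG, the same on both strands) was in 11.1% and 7.15%. Overlapping windows of Syt6 hold the same E-box, which is counted more than once in the member share. Among the genes that changed with age the E-box was in Stx6, Syt14, Syt6 and Vamp4, which fell, and in 0 of the 8 that rose. At 7.15% of all windows, 0 of 8 is an unremarkable count. The SMAD-binding element (CAGACA or TGTCTG), the core read by the SMAD factors of TGF-beta signalling, was in 5 of the 54 member windows and 6913 of all 32851. Some matches overlap, as the last pair of GC boxes in Syt14 do. A match describes letters in a window and is not a measured site.

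Other genes of the exocytosis machinery, 80 in 7 lists, were measured beside the family, and 75 were tested. Between genotypes 0 of 75 were called at P5, at P11 or in the interaction, with 7, 5 and 8 at an unadjusted p under 0.05, against 6.22%, 9.85% and 10.3% of all genes. Exoc6b of the exocyst had the smallest p of all these, at P11 (log2 fold change -0.26, adjusted p = 0.239). With age 16 rose and 22 fell in WT, and 14 rose and 22 fell in Het. Of all genes tested, 24.8% rose and 24.7% fell in WT, and 24.4% rose and 23.4% fell in Het. A share of similar size thus changed across the whole transcriptome, and the counts of the single lists below stand against the same shares. The 2 genes with the smallest p per list in WT are named next.

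The list of secretory Rab proteins and their effectors held 4 rising and 4 falling genes of 13 in WT, and 5 and 3 in Het. Rab27b rose from 8.62 ± 1.24 to 27.6 ± 9.73 CPM in WT (log2 fold change 1.68) and Rab27a fell from 56.6 ± 21.4 to 7.86 ± 0.894 CPM (-2.85). These paralogous GTPases are the ones that Sytl proteins bind, and both kept that direction in Het (1.24 and -2.13), each passing the test. Among other C2 domain proteins, Otof, or otoferlin, the calcium sensor of release in inner hair cells, fell from 157 ± 19.9 to 0.464 ± 0.211 CPM in WT (-8.39) and from 146 ± 10.2 to 2.07 ± 3.79 CPM in Het (-6.11). Myof, a membrane repair ferlin, rose from 46.9 ± 5.92 to 102 ± 14.7 CPM in WT (1.12). In this list 2 of 8 rose and 2 fell in WT, and 1 rose and 3 fell in Het.

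Among the 12 other SNAREs, 3 rose and 4 fell in WT and 2 rose and 4 fell in Het. Sec22b of the endoplasmic reticulum to Golgi route fell from 180 ± 9.28 to 115 ± 2.46 CPM in WT (log2 fold change -0.65), and Ykt6, a lipid-anchored SNARE, rose from 64.1 ± 4.52 to 84.3 ± 3.61 CPM (0.40). Of 9 SNARE disassembly and Sec1/Munc18 genes 0 rose and 3 fell in each genotype, among them Napa (-0.46), the alpha-SNAP that recycles SNARE bundles, and Scfd1 (-0.43), the partner of Stx5a. Of 9 exocyst genes 2 rose and 3 fell in WT and 2 rose and 2 fell in Het, with Exoc6b at 0.49 and Exoc3 at -0.53 in WT.

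The remaining lists hold genes best known from synapses. Of 13 tested priming, docking and clamping genes 1 rose and 3 fell in WT and 1 rose and 4 fell in Het: Unc13a, the Munc13 priming factor, rose (log2 fold change 1.01), and Rims1, a scaffold of the active zone, fell (-1.27), both in WT. Of 11 vesicle membrane genes 4 rose and 3 fell in WT and 3 rose and 3 fell in Het, with Synpr at -5.11 and Sv2b at -2.72 in WT, from 3.59 ± 1.23 to 0.102 ± 0.0852 CPM and from 2.18 ± 0.739 to 0.326 ± 0.224 CPM. The neuronal markers summed to 33.6 to 44.3 CPM in P5 WT and 23.8 to 31.9 CPM in P11 WT, and Schwann cell markers to 15.5 to 19.3 and 57.8 to 75.9 CPM. Most of the neuronal sum was Tubb3 (26.5 of 33.6 CPM in P5 WT 1), and the neuronal list was split. In WT, Tubb3, Elavl4 and Uchl1 fell (log2 fold changes -0.68, -2.46 and -2.12). Stmn2 rose (1.65) and Elavl3 was not called (0.47). The part of either list in the values above was not tested.

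Within P11, 5 of the 55 genes separated the libraries by prefix over both genotypes. Syt8 and Syt16 were higher in the 4 libraries of prefix 2, as were 2.34% of all genes tested, and Snap25, Syt1 and Syt17 were lower there, as were 3.24%. Snap25 stood at 13.5 to 19.8 CPM in the 6 libraries of prefix 1 and 8.52 to 12.2 CPM in the 4 of prefix 2. Syt1 stood at 0.529 to 0.916 and 0.178 to 0.384 CPM, and Syt17 at 2.34 to 4.63 and 1.90 to 2.26 CPM. Syt16 stood at 0.593 to 1.37 CPM in prefix 1 and 2.16 to 3.35 in prefix 2, and Syt8 at 0.438 to 1.33 and 1.68 to 2.64 CPM. Each prefix held both genotypes, so this separation does not follow genotype.

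**Figure D5:**
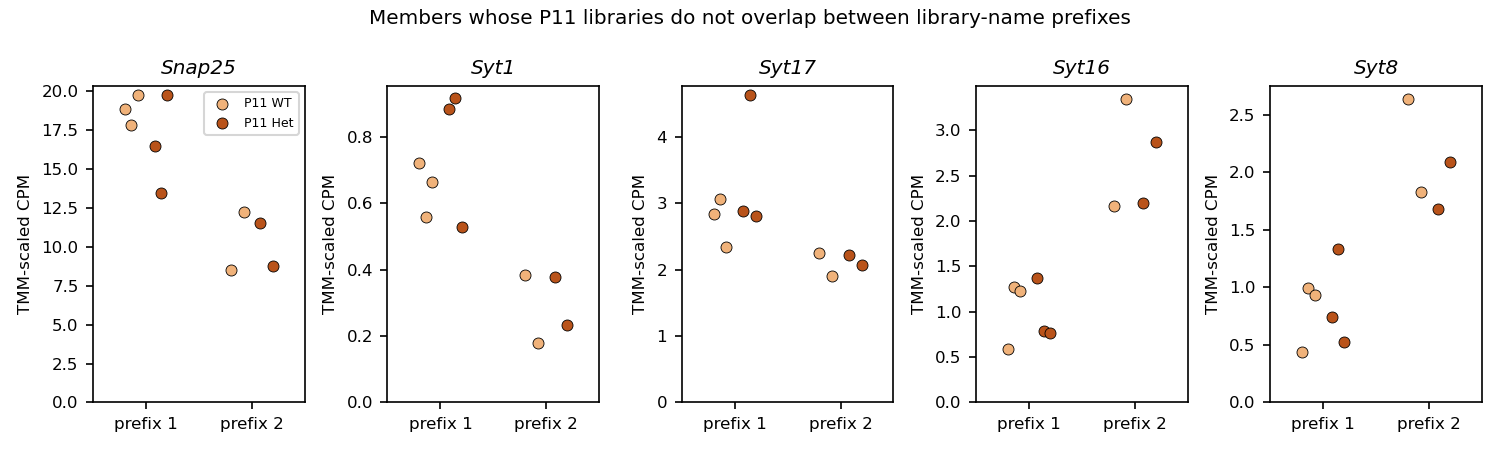
TMM-scaled CPM (vertical axis) in the P11 libraries of prefix 1 (6 libraries) and prefix 2 (4 libraries), coloured by genotype, for the 5 genes whose values do not overlap between prefixes. Snap25, Syt1 and Syt17 are lower and Syt16 and Syt8 higher in prefix 2, in both genotypes.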

How the data were processed

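Bulk RNA was sequenced from whole first molars in paired-end mode with Nextera XT libraries, which keep no strand and carry no molecular identifiers, per the labels' protocols. The submitters' processing notes name STAR 2.7.3a and build GRCm38, and also DESeq2, edgeR and limma without a role. Which counter and which gene models the authors used is not stated in the sources available here. The authors deposited raw counts, as whole numbers, for 55439 features. Of these, 18 that are not mouse genes (at most 0.000457% of a library) were left out. The deposited normalised table (signal: counts scaled by the authors to TMM-adjusted library sizes) was used for symbols and to select the 56 genes only.

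All values were recomputed from the raw counts. Tests used edgeR 4.0.16 in R 4.3.3: TMM factors, filterByExpr (minimum count 10, minimum total 15), a model of 4 age-by-genotype groups over 22 libraries (18 residual degrees of freedom, common dispersion 0.0381) and the two-sided quasi-likelihood test, adjusted by Benjamini-Hochberg over 21510 genes at 0.05. The SE is the log2 fold change over the square root of F. Levels per kb use exon lengths of GENCODE M21. The procedure was tested on simulated counts. Alternatives were RLE factors, DESeq2 1.42.0, voom of limma 3.58.1, no filter, only the groups compared, prefix and replicate blocks, and omitted libraries. Replicates were no repeat deposits (chi-square per degree of freedom 6.94 to 101).

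Given library by library were genes called between genotypes or in the interaction, the 5 with the smallest p there, and the 10 with the largest mean absolute age change among those called in both genotypes; 12 textbook genes and the 2 smallest p per pathway list were named too. Of the 56 genes, 2 are counted but not reported here. The members, lists and rules were chosen with earlier results of these data known. Counting intervals would cover counting error only, since reads without molecular identifiers are not independent molecules.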

Additional observations from a re-analysis of the deposited data

Results flagged for a closer look

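In 6 of 76 combinations of 19 genes and 4 groups, 1 library lay further from the rest of its group than Dixon's 95% limit allows; chance flags about 1 in 20 groups. Syt4 stood at 15.5 CPM in P5 WT 6, where the next highest library of the group held 1.21 CPM, and at 1.90 CPM in P11 Het 3, where the next held 0.633. Syt13 stood at 1.51 CPM in P5 Het 2 (next 0.647) and at 2.22 CPM in P11 WT 1 (next 1.65). Syt14 stood at 12.2 CPM in P5 Het 4 (next 9.41), the P5 library with the highest oral keratinocyte markers. Syt15 stood at 1.88 CPM in P5 WT 4 (next 1.17). All are synaptotagmins of low level, and no library was set apart by more than 1 of the 19 genes.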

How the results depend on the processing

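None of the single-gene results compared across the alternatives changed direction. The age changes of Syt4, Vamp1, Vamp5, Stxbp5 and the pathway genes were not among those compared. That of Syt4 in WT rests on P5 WT 6, and its direction without that library is not given here. The count of members higher in P5 Het was 0 and became 1 (Syt10) with only the groups compared. The count lower in P5 Het was 1 and became 2 (Stx18 and Syt4) with no filter on low counts, 0 without P5 Het 6, and 0 when the 5 libraries rich in muscle or mucosa markers were left out together; leaving out each library in turn gave 0 to 2. The count higher in the interaction was 0 and became 1 (Stx18) with DESeq2. The other counts stayed within 1.5 times of their value under every alternative that could be fitted; leaving out each library in turn gave 13 to 17 higher and 16 to 18 lower with age in WT and 14 to 17 and 16 to 17 in Het. Restricting P11 to libraries of 1 prefix was chosen after seeing the data: with prefix 2 alone 8 calls of single genes with age were lost and with prefix 1 alone 1 was, with fewer libraries in the fit. Over the single-gene results, 28 values lost their call and 5 gained it, against 2346 that did neither. Of these values, 1650 come from leaving out each library in turn, including libraries outside the groups compared, which bear little on a call. The omission of P5 Het 6 is counted again as a setting of its own.

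The replicate numbers of the titles did not pair the libraries: of 31 pairs of libraries with the same number, 5 had deviations correlated above 0.1 (range -0.16 to 0.21), and 6 libraries correlated best with one of their own number. With the replicate block the counts of members called with age were 14 higher and 17 lower in WT and 18 and 17 in Het, and Stx18 remained the 1 member called at P5. A prefix block for the age comparisons could not be fitted, since no prefix spans both ages. Depth limits the members under about 1 CPM, such as Syt1 and Syt8, whose libraries hold few counts.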

Other observations

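Vamp5 and Vamp8, neighbours 4754 bp apart on chromosome 6, went in opposite directions between P5 and P11 in WT, with log2 fold changes of -0.33 and 0.47. Rab3d, a Rab protein of zymogen and other secretory granules and the member of its list chosen here after its values were seen, rose from 18.8 ± 3.31 to 40.7 ± 17.2 CPM in WT (log2 fold change 1.12, adjusted p = 1.87e-05, edgeR) and from 18.6 ± 1.16 to 36.1 ± 6.99 CPM in Het (0.95, adjusted p = 0.000136).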
